A study of Mus musculus with 4 samples.

Results

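Among the cells of periwound mouse skin, 333 cells carried the RNA profile of inflammatory monocytes, here called *Ly6c2* *Chil3* monocytes. They were selected on measured unique molecular identifiers (UMIs), each of which stands for 1 captured RNA molecule. A cell was chosen by holding a UMI of at least 4 of 7 genes (*Ly6c2*, *Chil3*, *Plac8*, *Vcan*, *Ccr2*, *Ms4a4c* and *F10*). It also had to hold fewer than 10 UMIs of *C1qa*, *C1qb* and *C1qc* together, fewer than 3 of 7 osteoclast-like genes (*Acp5*, *Gpnmb*, *Mmp19*, *Ocstamp*, *Met*, *Ednrb* and *Pdpn*), and no UMI of *Cxcr2*, *Cd3g* or *Cxcl9*. The 333 cells were drawn from 6443 cells in which 200 to 3000 genes were detected and mitochondrial UMIs made up no more than 10%, out of 7178 deposited cells. Since these genes chose the cells, their levels are given as a description and none of them was tested.

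Monocytes are made in the bone marrow, circulate in blood and enter wounded tissue along chemokine gradients, for which the receptor gene *Ccr2* is the best known guide. The subset with high *Ly6c2* arrives early, produces inflammatory mediators such as interleukin-1β, and can mature in the tissue into macrophages or into cells that present antigen on major histocompatibility complex (MHC) class II. In skin wounds, monocytes and the macrophages derived from them clear debris and later supply growth factors for repair.

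All libraries came from C57/BL6j mice aged 6 weeks, with no genetic change named in the labels, and each of the 4 libraries was made from the skin around a full-thickness punch wound on day 7. The hucMSC-Exosomes group (2 mice, libraries hucMSC-Exo 1 and hucMSC-Exo 2) received exosomes of human umbilical cord mesenchymal stromal cells under the skin around the wound, and the control group (2 mice, libraries Control 1 and Control 2) received phosphate-buffered saline there. The group of each library rests on its title, and every direction between the groups below rests on it, since the file names carry letters that group the libraries differently. The letters put Control 1 with hucMSC-Exo 1 and Control 2 with hucMSC-Exo 2. Which grouping is right was not settled here, and no test between libraries grouped by the letters was made. The tissue field of the labels names the small intestine for the control libraries and the colon for the others, while the cell type field, the protocol and the paper name skin. Sets of 4 values are given in the order Control 1, Control 2, hucMSC-Exo 1 and hucMSC-Exo 2. Levels are in CPM, which is how many UMIs of a gene there were for every 1000000 UMIs that the monocytes of a library held together.

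The monocytes numbered 40, 92, 51 and 150 cells, with 286388, 635023, 325401 and 1004309 UMIs in all. Their median depth was 7323.5, 7451, 6286 and 7106.5 UMIs per cell, and no cell barcode was shared between libraries. The library Control 1 stood apart in several measures. Its monocytes held 20736 CPM of *Fth1*, the ferritin heavy chain, against 38009 to 56856 CPM in the other 3 libraries, and 54454 CPM of *Gm42418*, a gene model that overlaps ribosomal RNA, against 19303 to 37280 CPM.

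Of the 333 members, 99 held exactly 4 of the 7 genes, 105 held 5, 84 held 6 and 45 held all 7. Just outside the rule, 143 cells held 3 of the 7 genes and met every other condition. In Control 2, the 27 members with exactly 4 genes had a median of 2867 UMIs, while the 59 cells with 3 genes had a median of 7726. In the other 3 libraries the median was 8241.5, 6617 and 6033 UMIs with 4 genes and 7971, 6149 and 6749 UMIs with 3 genes. Of 581 cells with 4 or more of the genes, 100 were left out for complement genes and 150 for osteoclast-like genes. A further 6 held *Cxcr2*, 27 held *Cd3g* and 28 held *Cxcl9*, and these conditions can overlap in a cell. The cells with *Cxcl9* were spread unevenly, at 17 of 87 in Control 1, 8 of 190 in Control 2, 2 of 92 in hucMSC-Exo 1 and 1 of 212 in hucMSC-Exo 2. What their removal did to the shares and to the interferon levels below was not tested. The C1q sum was 0 in 284 members, 1 to 4 in 35 and 5 to 9 in 14.

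The chosen genes varied between libraries. *Plac8*, a cysteine-rich protein of myeloid cells, stood at 2675, 2869, 1893 and 3752 CPM, and *Chil3*, a secreted chitinase-like lectin, at 559, 731, 529 and 782 CPM. *Ly6c2*, the surface antigen that marks inflammatory monocytes in mice, stood at 1533, 1186, 203 and 1512 CPM. The library hucMSC-Exo 1 was therefore lowest in all 3, and its *Ly6c2* level was far below the other 3 libraries, with a *Ly6c2* UMI in 47.1% of its members against 80.0% to 91.3% elsewhere. Reads of *Ly6c2* can be shared with its close copy *Ly6c1*, which had at most 2 UMIs in a library. *Vcan*, a matrix proteoglycan, stood at 168, 408, 415 and 305 CPM and the chemokine receptor gene *Ccr2* at 342, 400.0, 338 and 567 CPM.

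Genes outside the rule that are known from monocytes were present in every library. *Lyz2*, the myeloid lysozyme, stood at 8098, 6457, 7809 and 8482 CPM, *Cd14*, a receptor for bacterial lipopolysaccharide, at 1659, 2816, 3175 and 2387 CPM, and *Thbs1*, the secreted glycoprotein thrombospondin-1, at 3314, 9609.8, 9115 and 8031 CPM. Control 1 held the lowest level of *Cd14* and *Thbs1*, while *Lyz2* differed little between libraries.

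Markers of other cells were low but not absent. The 8 dendritic cell markers summed to 297, 96.1, 64.5 and 116 CPM, and the defining genes *Zbtb46*, *Xcr1* and *Clec9a* to at most 2 UMIs each in all 333 cells. Other genes of that list were present, with a *Cd209a* UMI in 10%, 3.26%, 5.88% and 8.67% of the members and a *Ccr7* UMI in 10%, 6.52%, 0% and 6.67%. The neutrophil markers summed to 94.3, 228, 126 and 179 CPM, against 6144, 7614, 7156 and 8523 CPM in neutrophils of the same libraries. Among these markers, *Retnlg*, *Csf3r*, *Mmp9*, *Trem1* and *G0s2* also chose the neutrophils, so a wide gap was set by the choice. UMIs of 2 or more keratinocyte genes were found in 192 members, of 2 or more fibroblast genes in 115 and of 2 or more neutrophil markers in 52 (3, 19, 6 and 24). T cell and NK cell markers reached that number in 1 member each. Markers of any other cell type were counted in 258 of the 333 members, with 3 markers required for dendritic cells. Scrublet, which simulates doublets, called 0 of the 333 members, but it marked only 26 of the 6443 cells, under the share at which such a caller can be taken to have worked.

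The share of monocytes among the kept cells was 4.20% in Control 1 (40 of 952 cells, 95% Clopper-Pearson interval 3.02% to 5.68%) and 4.44% in Control 2 (92 of 2074, 3.59% to 5.41%). It was 3.60% in hucMSC-Exo 1 (51 of 1416, 2.69% to 4.71%) and 7.50% in hucMSC-Exo 2 (150 of 2001, 6.38% to 8.74%). The hucMSC-Exosomes libraries thus lay on both sides of the control libraries. The overlap ended without members that held markers of other cell types, mostly keratinocyte and fibroblast genes, a setting that kept 3, 12, 19 and 41 members, or 0.315%, 0.579%, 1.34% and 2.05% of cells (exact permutation p = 0.333, the smallest that 2 libraries against 2 allow). The control libraries averaged 4.32% ± 0.166 (SD, n = 2) and those of the hucMSC-Exosomes group averaged 5.55% ± 2.75 (SD, n = 2). The exact permutation test over the 4 libraries gave a two-sided p = 1, where 2 libraries against 2 allow no p below 0.333. Without hucMSC-Exo 2 the difference of 1.23 percentage points turned to -0.717, and it was 0.154 with every cell thinned to 1000 UMIs before the rule. The intervals cover counting error only, and a share of cells does not tell more monocytes from fewer other cells.

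**Figure D1:**
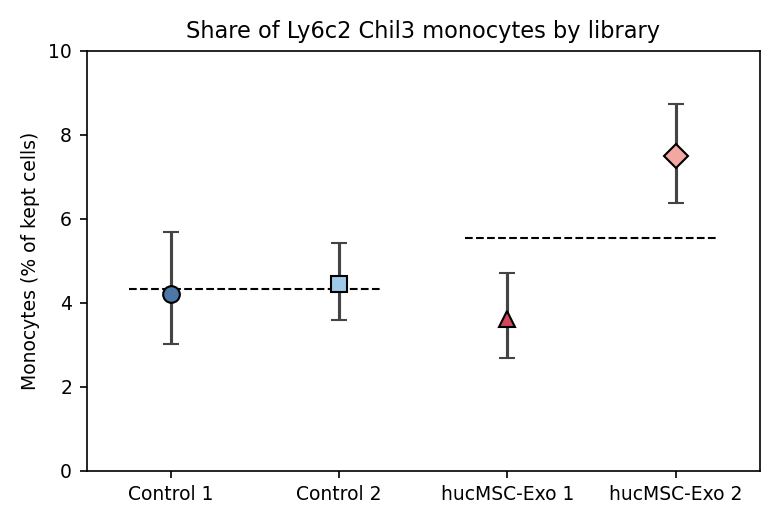
Share of Ly6c2 Chil3 monocytes in percent of the kept cells of each library; points are libraries, error bars are 95% Clopper-Pearson intervals and dashed lines are group means. The 2 control libraries lie at 4.20% and 4.44%, between hucMSC-Exo 1 at 3.60% and hucMSC-Exo 2 at 7.50%.

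Against the neighbouring populations the ratio also varied. The monocytes made up 28.8%, 16.3%, 21.6% and 20.9% of the monocytes, osteoclast-like macrophages, C1q-high macrophages and neutrophils as a sum. There were 0.702, 0.672, 0.671 and 1.55 monocytes for each C1q-high macrophage, so 3 libraries were nearly alike and hucMSC-Exo 2 was higher. Per neutrophil there were 1.05, 0.341, 0.785 and 0.338 monocytes, and here the 2 libraries of each group differed from each other more than the groups did.

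The comparison of the hucMSC-Exosomes group with the control group asks whether the RNA of monocytes differed with the treatment. No gene did so past the threshold. The edgeR quasi-likelihood test on the summed UMIs called 0 of 4684 genes at a Benjamini-Hochberg adjusted p under 0.05, which is 0% of the genes tested, and 74 genes had an unadjusted p under 0.05. DESeq2 also called 0, with 21 at an unadjusted p under 0.05. The median log2 fold change over all genes was 0.05, and the values below are levels and not changes.

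The 5 genes with the smallest p had an edgeR adjusted p of 0.999 each. *Il1rn*, the antagonist of the interleukin-1 receptor, stood at 416, 387, 166 and 190.2 CPM (log2 fold change -1.0 ± 0.26, standard error). Both hucMSC-Exosomes libraries lay below both control libraries. *Trim8*, a ubiquitin ligase, stood at 59.4, 42.5, 15.4 and 15.9 CPM and *Slc37a2*, a sugar-phosphate transporter of myeloid cells, at 48.9, 47.2, 18.4 and 14.9 CPM, also without overlap. *Mt2*, a metal-binding metallothionein, stood at 34.9, 28.3, 76.8 and 68.7 CPM and *Topors*, a ubiquitin and SUMO ligase, at 10.5, 17.3, 40.0 and 45.8 CPM, with both hucMSC-Exosomes libraries above. Such separation was common: in 417 genes (8.9%) both hucMSC-Exosomes libraries lay above both controls, and in 969 genes (20.7%) both lay below, which together are 29.6% of the genes tested.

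Inflammatory mediators and chemokines were not called in any direction. Of 13 mediators tested, 4 had both hucMSC-Exosomes libraries above the controls and 2 had both below, where 8.9% and 20.7% of all genes tested did. The median log2 fold change of the 13 was 0.44. The neutrophil-attracting chemokine gene *Cxcl2* stood at 3433, 6106, 12794 and 6907 CPM, with hucMSC-Exo 1 highest and Control 1 lowest, and its fold change of 1.21 ± 0.40 (log2, standard error) had an edgeR adjusted p of 0.999. It was called under 3 of 13 other settings, at an edgeR adjusted p of 0.0404 without hucMSC-Exo 2 (1.62), 0.000608 with no filter on low counts, and 0.0192 with the numbers crossed as a block, a fit added after the data were seen, and its adjusted p over the 13 ran from 0.000608 to 1. *Cxcl3*, a related chemokine gene, stood at 80.3, 1967, 2591 and 1082 CPM and *Il1b* at 1198, 3405, 3116 and 3577 CPM, both with Control 1 lowest and the other 3 libraries overlapping. *Hmox1*, the heme-degrading enzyme heme oxygenase-1, stood at 279, 2203, 4948 and 1674 CPM, with Control 1 lowest, hucMSC-Exo 1 highest and the groups overlapping.

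The genes that interferon induces in many cell types varied widely between single libraries. *Isg15*, a ubiquitin-like modifier, stood at 395, 80.3, 21.5 and 84.6 CPM, *Irf7*, a transcription factor of the interferon response, at 587, 134, 46.1 and 197 CPM, and *Rsad2*, the antiviral enzyme viperin, at 429.5, 67.7, 12.3 and 71.7 CPM. In all 3, Control 1 was several times above the next library and hucMSC-Exo 1 was lowest, while Control 2 and hucMSC-Exo 2 lay close together. The 16 interferon genes summed to 5674, 2365, 1180.2 and 2899.7 CPM in monocytes. In neutrophils of the same libraries they summed to 3742, 1368, 689 and 1817 CPM, in the same order of libraries, and in C1q-high macrophages to 3028, 3158, 1613 and 3443 CPM, where Control 1 was not the highest. Cells with a *Cxcl9* UMI had been left out of the monocytes and the C1q-high macrophages, but not of the neutrophils.

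All 14 interferon genes tested had a log2 fold change below 0 for hucMSC-Exosomes against control, with a median of -0.92, but none was called. Both hucMSC-Exosomes libraries lay below both controls in 2 of the 14, which compares with 20.7% of all genes. These were *Gbp2*, a guanylate-binding protein, at 168, 113, 3.07 and 50.8 CPM and *Ifi47*, an interferon-induced GTPase, at 105, 29.9, 0 and 27.9 CPM. In the other 12 the groups overlapped, and hucMSC-Exo 2 lay above Control 2. Control 1 was also the library with the lowest *Fth1* and the highest *Gm42418*, and the part of this library's quality in the interferon values was not tested.

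The DNA before 2 of these genes is shown because it carries a repeat that interferon regulatory factors are known to bind. The bases are the 120 before the RefSeq start on GRCm38.p6, 5′ to 3′ on the strand of the gene, for *Isg15* (chr4:156200819-156200938, minus strand) and *Ifit1* (chr19:34640769-34640888, plus strand). Capitals mark GAAA followed, after any 2 bases, by GAAA, searched on both strands over the 250 bases before the start. It was present before 2.98% of 32851 promoters and before 7 of the 12 listed interferon genes with a promoter in the table, and overlapping matches run together in *Isg15*. A match describes the letters and not a bound site.
Isg15: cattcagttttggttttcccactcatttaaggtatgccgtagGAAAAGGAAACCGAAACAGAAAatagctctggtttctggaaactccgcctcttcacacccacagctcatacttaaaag
Ifit1: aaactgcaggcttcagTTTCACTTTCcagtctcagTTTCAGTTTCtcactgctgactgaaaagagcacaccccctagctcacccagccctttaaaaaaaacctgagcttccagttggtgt

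**Figure D2:**
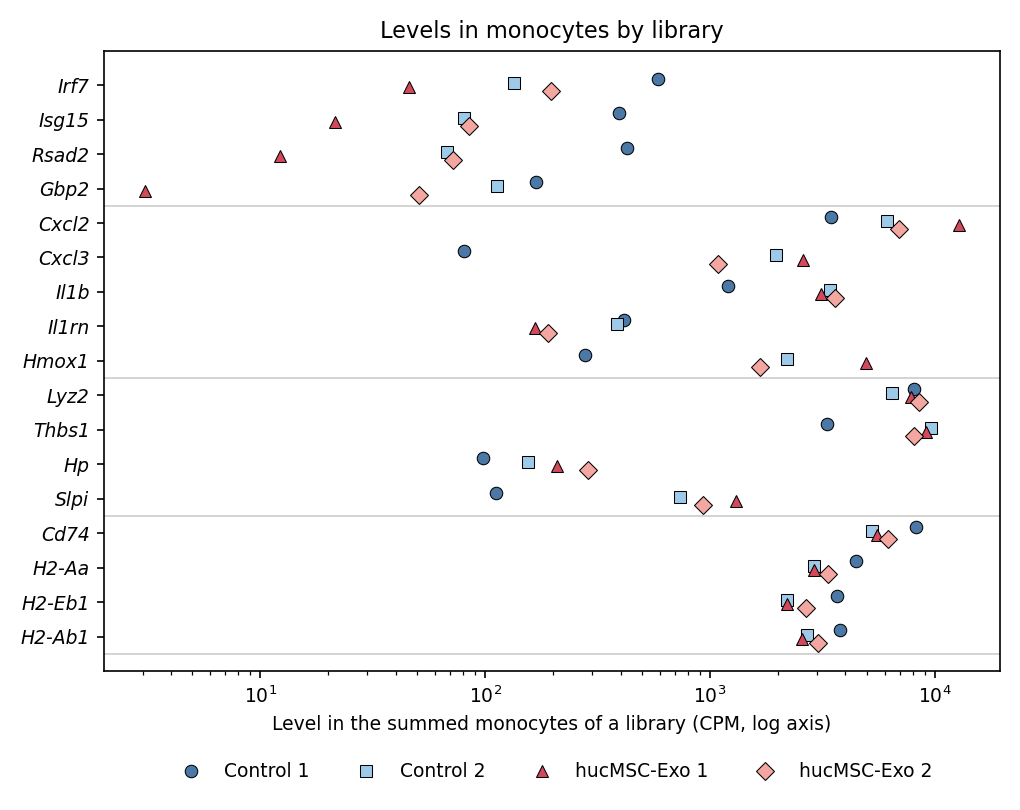
Levels of 17 genes in the summed monocytes of each library, in CPM on a log axis, with 1 symbol per library. Control 1 is highest for Irf7 (587 CPM), Isg15 (395 CPM) and Rsad2 (430 CPM) and lowest for Cxcl3 (80.3 CPM), and the MHC class II genes lie close together in all 4 libraries.

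Genes of the other groups gave no call between the groups either. Of all genes tested, 8.9% lay higher in both hucMSC-Exosomes libraries and 20.7% lower. Of 21 further monocyte genes tested, 2 lay higher in both and none lower, with a median log2 fold change of 0.23. One was *Hp*, the hemoglobin-binding plasma protein haptoglobin, at 97.8, 156, 209 and 286 CPM (1.09 ± 0.35, edgeR adjusted p = 0.999). The 6 MHC class II genes had a median of -0.05 and all overlapped, with *Cd74* at 8234, 5247, 5514 and 6163 CPM. *Slpi*, a protease inhibitor, stood at 112, 739, 1303 and 926 CPM and *S100a9*, a calcium-binding alarmin of neutrophils and monocytes, at 0, 42.5, 243 and 57.8 CPM, both with Control 1 lowest and hucMSC-Exo 1 highest. *Irf8*, a transcription factor of the monocyte lineage, stood at 230.5, 186, 98.3 and 128 CPM, with both hucMSC-Exosomes libraries below. The neutrophil markers beside these granule genes summed to 94.3, 228, 126 and 179 CPM, in another order of libraries, and their part was not tested.

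The monocytes were next compared with C1q-high macrophages, the cells with 10 or more C1q UMIs, of which the libraries held 57, 137, 76 and 97. Monocytes held less of the genes for chemokines that recruit monocytes, of scavenger and lysosome genes and of MHC class II, and more of the genes of glycolysis, of *Il1b* and of *Cxcl2* and *Cxcl3*. edgeR, with the library as a block and the genes of both rules left out, called 813 genes higher in monocytes (15.9%) and 651 lower (12.7%) of 5121, or 28.6% in all, with a median log2 fold change of 0.05.

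Of 15 chemokine genes, 9 were lower in monocytes and 4 higher, with a median of -1.76. The monocyte attractant gene *Ccl8* stood at 147, 4.72, 3.07 and 9.96 CPM in monocytes and 5330.1, 3764, 4092 and 9504 CPM in C1q-high macrophages. Control 1 held more *Ccl8* in monocytes than the other libraries, yet the populations did not overlap. The change was -7.75 ± 0.58, adjusted p = 8.19e-07 (log2, standard error, edgeR). *Ccl2*, the main ligand of the receptor CCR2, stood at 150.2, 132, 52.2 and 120.5 CPM against 416, 747, 602 and 902 CPM (-2.46 ± 0.23, adjusted p = 5.59e-06, edgeR), and *Ccl7* and *Ccl12*, which act on the same receptor, changed by -4.13 and -4.82. *Pf4*, the chemokine platelet factor 4, stood at 17.5, 9.45, 73.8 and 9.96 CPM against 1855, 1986, 2434 and 2290.2 CPM (-6.53 ± 0.35, adjusted p = 9.68e-08, edgeR).

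The neutrophil-attracting chemokine genes went the other way. *Cxcl3* stood at 80.3, 1967, 2591 and 1082 CPM in monocytes and 4.84, 289, 653 and 125 CPM in C1q-high macrophages, higher in monocytes in all 4 libraries (2.80 ± 0.21, adjusted p = 8.83e-07, edgeR). *Cxcl2* was higher by 1.27 and *Il1b* by 1.39 on the log2 scale. Of 15 inflammatory mediators, 5 were higher (*Il1b*, *Osm*, *Ptgs2*, *Nlrp3* and *Sod2*) and 5 lower (*Tnf*, *Il10*, *Nfkbiz*, *Tnfaip3* and *Saa3*).

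Of 12 hypoxia and glycolysis genes, 10 were higher in monocytes and none lower, with a median of 0.87. *Pgk1*, a glycolytic kinase, stood at 318, 609, 467 and 435 CPM against 89.5, 217, 225 and 149 CPM, with no overlap (1.58 ± 0.16, adjusted p = 1.13e-05, edgeR). *Pfkl*, a subunit of phosphofructokinase, changed by 1.63, *Eno1*, an enolase, by 1.36, *Ldha*, which makes lactate, by 0.87 and *Gapdh* by 0.72. *Hk2* and *Mif* did not pass the test. Without members that held markers of other cell types, *Ldha* (0.67) and *Gapdh* (0.42) lost the call, with edgeR adjusted p-values of 0.093 and 0.275.

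Receptors for entry and growth were higher in 9 of 17 cases and lower in 2, among the higher ones *Ccr1* and the integrin genes *Itga4* and *Itgb2*. *Hp* stood at 97.8, 156, 209 and 286 CPM against 7.26, 3.24, 8.48 and 8.01 CPM (5.0 ± 0.29, adjusted p = 1.41e-07, edgeR). Every library held more of it in monocytes. *Slpi* changed by 4.67, *Mcemp1*, a myeloid membrane protein, by 4.04 and *Gsr*, a reductase of glutathione, by 2.87.

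The markers of resident macrophages were lower in 5 of 5 cases. *Folr2*, a folate receptor, had 2 UMIs in all monocytes and stood at 189, 92.8, 78.4 and 135 CPM in C1q-high macrophages. *Cd163*, a hemoglobin scavenger receptor, had 3 UMIs against 156, and *Mertk*, a receptor for dying cells, 2 against 120. Of 16 scavenger and lysosome genes, 10 were lower and 1, *Lgals3*, was higher, with a median of -0.70. *Apoe*, a lipid carrier, stood at 2709.8, 1769, 3107 and 2061 CPM against 25379, 15073, 10655 and 21256 CPM (-2.77 ± 0.22, adjusted p = 1.35e-06, edgeR). Of 13 repair genes, 7 were lower, among them the growth factor gene *Igf1* (-5.77) and the mannose receptor gene *Mrc1* (-2.72), and 1, *Tgfbi*, was higher.

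Transcription factors moved in both directions, with 5 of 15 higher (*Spi1*, *Cebpb*, *Irf5*, *Runx1* and *Hif1a*) and 6 lower. *Maf*, a factor of mature macrophages, stood at 150.2, 50.4, 12.3 and 45.8 CPM against 537, 666, 483 and 906 CPM (-3.45 ± 0.34, adjusted p = 7.78e-06, edgeR), lower in monocytes of each library. MHC class II genes were lower in 4 of 7 cases, with a median of -0.57, and *H2-Aa* stood at 4442, 2906, 2889 and 3332 CPM against 5038, 5331, 6744 and 5532 CPM. The number of genes called fell from 1464 to 834 without Control 2 and to 898 without hucMSC-Exo 2.

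**Figure D3:**
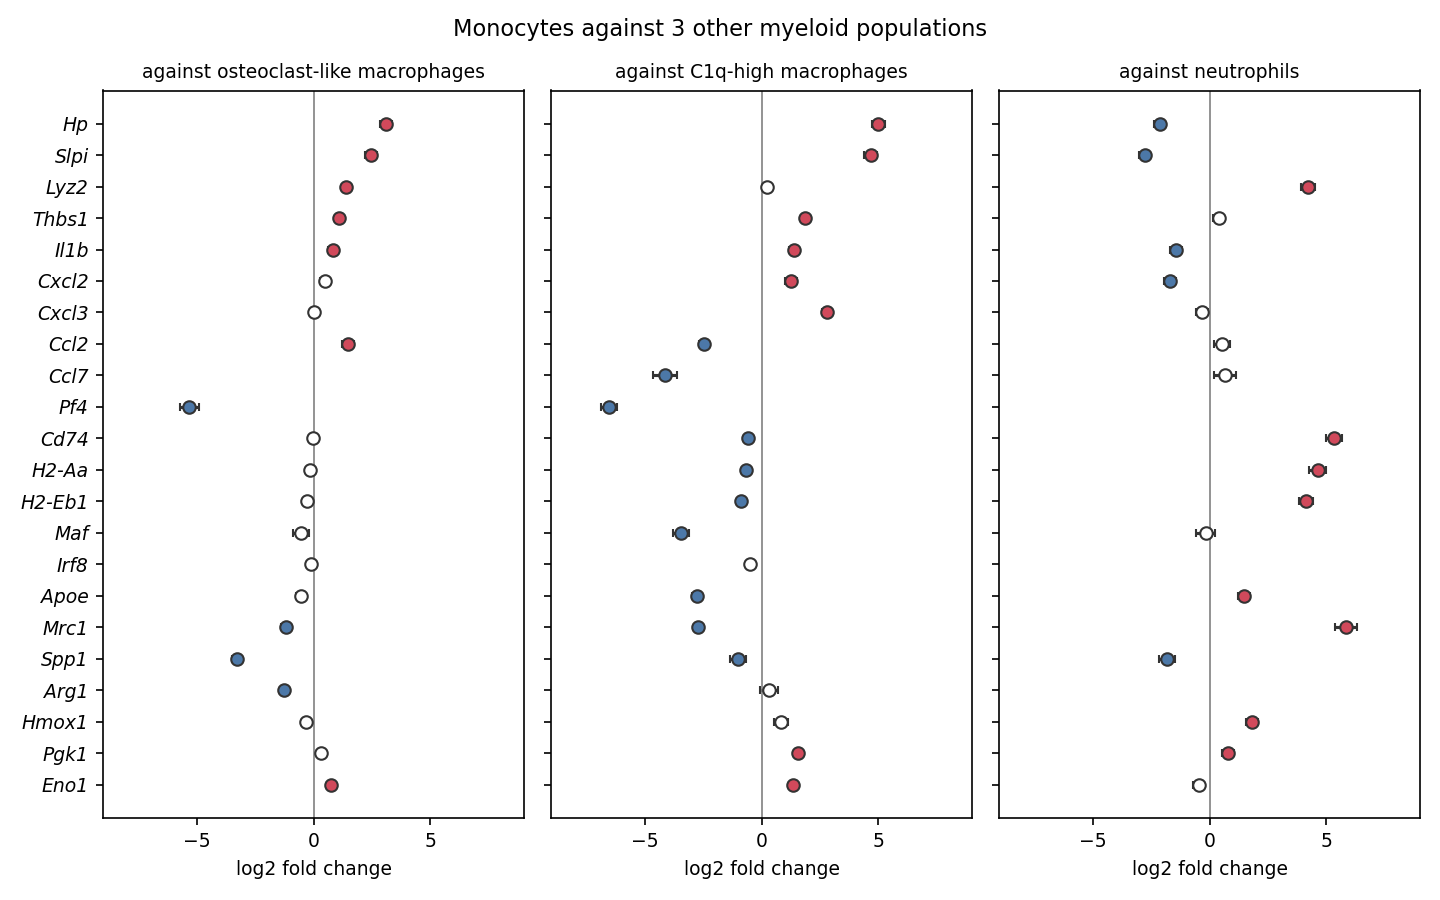
Log2 fold change of monocytes against 3 populations for 22 genes, with standard errors; red points were higher and blue points lower in monocytes at an edgeR adjusted p under 0.05, white points were not called, and a missing point was not tested or had under 4 UMIs on a side. Hp lies at 3.09 and 5.0 against the macrophages and below 0 against neutrophils, while Pf4 lies at -5.32 and -6.53 against the macrophages.

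The monocytes were then compared with osteoclast-like macrophages, the cells with 3 or more of the 7 osteoclast-like genes. The libraries held 4, 65, 44 and 25 of them, so Control 1 was left out and values are given for Control 2, hucMSC-Exo 1 and hucMSC-Exo 2. edgeR called 369 genes higher in monocytes (8.41%) and 225 lower (5.13%) of 4387, or 13.5% in all, with a median of 0.11. Of 21 monocyte genes outside the rule, 15 were higher and none lower, with a median of 0.94. *Hp* stood at 156, 209 and 286 CPM in monocytes and 26.1, 19.9 and 35.5 CPM in osteoclast-like macrophages (3.09 ± 0.26, adjusted p = 0.000159, edgeR), and *Lyz2* changed by 1.38 and *Thbs1* by 1.11.

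Of 8 interferon genes tested, 7 were higher in monocytes and none lower, with a median of 1.33. *Irf7* stood at 134, 46.1 and 197 CPM against 56.0, 22.8 and 88.7 CPM (1.34 ± 0.23, adjusted p = 0.0049, edgeR), and *Ifi209*, of the interferon-inducible p200 family, at 101, 30.7 and 145 CPM against 9.34, 5.70 and 11.8 CPM (3.42). Each library held more of both in monocytes. *Ltb4r1*, the receptor for the lipid attractant leukotriene B4, changed by 3.29 and *Gpr141*, an orphan receptor, by 3.54. *Irf7* lost the call with DESeq2 (1.27, DESeq2 adjusted p = 0.0576) and without hucMSC-Exo 2 (1.32, edgeR adjusted p = 0.0600). Without Control 2, *Irf7* (edgeR adjusted p = 0.125), *Ifi209*, *Ltb4r1* and *Gpr141* all lost it.

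Repair genes went the other way, with 5 of 11 lower in monocytes and 1, *Tgfb1*, higher, and a median of -1.17. *Spp1*, the matrix protein osteopontin, stood at 102, 178 and 172 CPM against 1535, 1786 and 1578 CPM, without overlap (-3.29 ± 0.19, adjusted p = 2.13e-05, edgeR). *Arg1*, the arginine-degrading enzyme arginase-1, stood at 186, 64.5 and 204 CPM against 474, 205 and 549.7 CPM (-1.28 ± 0.17, adjusted p = 0.00158, edgeR), lower in monocytes of each library. *Mrc1* changed by -1.17, *Mmp14*, a membrane-bound matrix protease, by -1.29, and *Ecm1* by -1.17.

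*Il1rn* stood at 387, 166 and 190.2 CPM against 1611, 1019.9 and 1129 CPM (-2.22 ± 0.16, adjusted p = 8.09e-05, edgeR), and *Pf4* at 9.45, 73.8 and 9.96 CPM against 607, 1259 and 1229.5 CPM (-5.32 ± 0.41, adjusted p = 9.56e-05, edgeR). Both were lower in monocytes of all 3 libraries. *Ctsk*, the protease cathepsin K, changed by -4.18, *Nrp2*, a co-receptor, by -4.18, *Lpl*, a lipase, by -3.92 and the chemokine gene *Cxcl1* by -3.26. *Ccr7*, a homing receptor of dendritic cells, stood at 53.5, 0 and 28.9 CPM against 454, 239 and 597 CPM (-3.77), and the dendritic cell markers summed to 96.1, 64.5 and 116 CPM in monocytes against 515, 268 and 763 CPM. The part of dendritic cells in these changes was not tested.

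Of 6 MHC class II genes, 1 was called (*H2-DMa*, higher), with a median of -0.08. *Cd74*, the invariant chain of MHC class II, stood at 5247, 5514 and 6163 CPM against 5764, 5222 and 8879 CPM (-0.02 ± 0.12, adjusted p = 0.92, edgeR), and *Cxcl2* at 6106, 12794 and 6907 CPM against 6039.9, 12729 and 3606 CPM. Neither passed the test, which does not show that they were equal. The upper limit of 3000 genes per cell bears on these values: without it the libraries held 12, 157, 82 and 30 osteoclast-like macrophages, Control 1 entered, 1951 genes were called, and *Cd74* was higher in monocytes by 2.18 (edgeR adjusted p = 0.00435, where the 11 alternatives ran from this value to 0.964). 5 calls given above were lost there, with *Mrc1* at 0.96, *Arg1* at -0.34, *Ecm1* at -0.59, *Il1rn* at -0.43 and *Ccr7* at -0.94, and edgeR adjusted p-values of 0.207, 0.402, 0.0793, 0.522 and 0.481. The calls depended on 1 library, as 594 genes fell to 10 without Control 2 and to 297 without hucMSC-Exo 2.

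Against neutrophils, of which the libraries held 38, 270, 65 and 444, the monocytes held more MHC class II, repair and scavenger genes and fewer granule genes and inflammatory mediators. edgeR called 1243 genes higher in monocytes (28.4%) and 1119 lower (25.5%) of 4382, or 53.9% in all, with a median of 0.09. All 6 MHC class II genes tested were higher in monocytes, with a median of 5.13. *Cd74* stood at 8234, 5247, 5514 and 6163 CPM against 83.7, 233, 98.4 and 108 CPM (5.32 ± 0.34, adjusted p = 2.22e-13, edgeR), and *H2-DMb1*, a subunit of the peptide-loading protein, had 562 UMIs against 1.

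Of 14 transcription factors, 5 were higher in monocytes and 5 lower. *Irf8* stood at 230.5, 186, 98.3 and 128 CPM in monocytes, 345 UMIs against 2 in neutrophils. *C3ar1*, the receptor for complement C3a, stood at 112, 161, 58.4 and 224 CPM in monocytes and had no UMI in neutrophils. Repair genes were higher in 9 of 10 cases, among them *Mrc1* (5.83), *Tgfbi* (1.60), the vessel growth factor gene *Vegfa* (1.37) and *Hmox1* (1.82), and *Spp1* was lower (-1.82). Scavenger and lysosome genes were higher in 12 of 15 cases and lower in 3, with a median of 1.57.

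The granule and antimicrobial genes were lower in 6 of 6 cases. *S100a8* stood at 17.5, 86.6, 372 and 75.7 CPM in monocytes and 23812, 44548, 47463 and 50624 CPM in neutrophils (-8.96 ± 0.45, adjusted p = 1.97e-15, edgeR), and *Lcn2*, the iron-trapping lipocalin-2, at 0, 15.7, 15.4 and 11.9 CPM against 430.3, 738, 1166 and 841 CPM (-6.36 ± 0.33, adjusted p = 3.2e-15, edgeR). The monocytes of every library were far below. Inflammatory mediators were lower in 10 of 14 cases and higher in 1, with a median of -1.41. *Il1b* stood at 1198, 3405, 3116 and 3577 CPM against 9766, 5299.9, 6603 and 4952 CPM (-1.43 ± 0.27, adjusted p = 5.16e-05, edgeR), *Cxcl2* changed by -1.70 and *Nlrp3*, a sensor of the inflammasome, by -1.41. *Il1b* and *Cxcl2* were thus higher in monocytes than in C1q-high macrophages and lower than in neutrophils.

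All 5 keratinocyte genes and all 4 fibroblast genes tested were lower in monocytes than in neutrophils. The keratinocyte genes summed to 646, 353, 464 and 368 CPM in monocytes and 2247, 1645, 3264 and 1403 CPM in neutrophils, which had a median of 2200.5, 2227, 1868 and 2204 UMIs per cell. Genes of other skin cells thus moved with this comparison, and their part in the other calls was not tested. The number of genes called fell from 2362 to 1537 without Control 2 and to 1509 without hucMSC-Exo 2.

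Among the monocytes themselves, MHC class II varied widely from cell to cell. *H2-Ab1* (chr17:34257689-34269419, plus strand, GRCm38), the beta chain of an MHC class II dimer, ranged, in members of 1000 UMIs or more, from 0 UMIs in 13, 44, 21 and 62 cells to a maximum of 173, 166, 121 and 178 UMIs in a cell. After each cell was thinned to 1000 UMIs, 52.5%, 43.3%, 54.9% and 47.7% of the monocytes held a UMI of it (21 of 40, 39 of 90, 28 of 51 and 71 of 149 cells). Before thinning the shares were 67.5%, 50%, 58.8% and 58.7%. In neutrophils of the same libraries, which make little class II, 0%, 6.37%, 12.5% and 4.76% did after thinning. The share in monocytes was thus above this background in every library, and the groups overlapped.

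The DNA before 3 class II genes is shown because they share a short element near the start. The 120 bases before the RefSeq start (GRCm38.p6, 5′ to 3′ on the strand of the gene) are given for *H2-Aa* (chr17:34287824-34287943, minus strand), *H2-Eb1* (chr17:34305747-34305866, plus strand) and *H2-DMb1* (chr17:34153071-34153190, plus strand). Capitals mark GATTGG on either strand, known as the Y box of class II promoters. Over 250 bases it was present before 14.6% of 32851 promoters and before all 4 class II genes with a promoter in the table. It began 49 bases before the start in *H2-Aa*, 60 in *H2-Eb1* (with another match on the opposite strand at 35) and 62 in *H2-DMb1*, while in *H2-DMa* it lay farther out, 199 bases before the start.
H2-Aa: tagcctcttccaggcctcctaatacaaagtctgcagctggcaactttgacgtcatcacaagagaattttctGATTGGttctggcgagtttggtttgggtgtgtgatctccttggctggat
H2-Eb1: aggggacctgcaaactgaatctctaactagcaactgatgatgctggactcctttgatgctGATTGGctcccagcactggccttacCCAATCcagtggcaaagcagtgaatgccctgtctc
H2-DMb1: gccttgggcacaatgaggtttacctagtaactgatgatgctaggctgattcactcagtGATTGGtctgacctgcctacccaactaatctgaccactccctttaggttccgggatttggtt

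The 5 further class II genes tested were all higher in the monocytes with *H2-Ab1*, with a median log2 fold change of 3.65, where edgeR called 27 genes higher (0.938%) and 17 lower (0.591%) of 2877, or 1.53% in all, and the median over all genes was 0.01. *H2-Aa*, the partner chain of *H2-Ab1*, stood at 6726, 6038, 5069 and 6720.3 CPM with *H2-Ab1* and 582, 131, 105 and 255 CPM without (4.81 ± 0.27, adjusted p = 3.01e-07, edgeR). *Cd74* stood at 12046, 10525, 9249 and 11999.7 CPM against 1794, 573, 742 and 859 CPM (3.65 ± 0.19, adjusted p = 2.9e-07, edgeR). The 2 sets did not overlap in either gene, and the cells without *H2-Ab1* held most in Control 1. *H2-Eb1* changed by 5.22, *H2-DMb1* by 3.29 and *H2-DMa* by 1.96.

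Of 14 homing and growth factor receptors, 2 were higher with *H2-Ab1* and none lower, and 2 lectin receptors were higher as well. *Clec10a*, a lectin that binds galactose-type sugars, stood at 88.9, 87.3, 43.8 and 226 CPM against 18.8, 20.9, 7.0 and 11.4 CPM (3.15 ± 0.40, adjusted p = 0.000955, edgeR), and *Mrc1* at 167, 265, 159 and 281 CPM against 65.7, 86.5, 35.0 and 62.7 CPM (1.88 ± 0.22, adjusted p = 0.000433, edgeR). Each was higher in 4 of 4 libraries. *Il1r2*, the decoy receptor for interleukin-1, changed by 1.42, *Ramp3*, a partner of peptide receptors, by 2.78, *Gpr171* by 2.15 and the signalling protein gene *Wnt11* by 1.95.

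*Cd209a*, a lectin gene of monocyte-derived dendritic cells, stood at 122, 63.8, 93.2 and 159 CPM in monocytes with *H2-Ab1* and 0, 0, 0 and 3.80 CPM without, 134 UMIs against 2. *Ccr7* stood at 317, 114, 0 and 60.7 CPM with and had no UMI without. The other 6 dendritic cell markers stayed low, with 13 UMIs of *Flt3* and at most 1 UMI each of *Xcr1*, *Clec9a*, *Zbtb46*, *Fscn1* and *Itgae* in the cells with *H2-Ab1*. The list summed to 461, 195, 109.6 and 228 CPM with *H2-Ab1* and 18.8, 8.95, 7.0 and 13.3 CPM without, and the part of dendritic cells in these calls was not tested.

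The 17 genes lower with *H2-Ab1* included *Slpi* and *Hp*, which the monocytes as a whole held above both macrophage populations. *Slpi* stood at 88.9, 322, 373 and 201 CPM against 150.3, 1113, 2492 and 1586 CPM (-2.30 ± 0.27, adjusted p = 0.000531, edgeR), with the smallest gap in Control 1. *Hp* stood at 72.3, 40.3, 159 and 121 CPM against 141, 259.5, 273 and 435 CPM (-1.61 ± 0.27, adjusted p = 0.00982, edgeR), lower in 4 of 4 libraries. *Gsr* changed by -1.26, *Mgst1*, a membrane glutathione transferase, by -1.56, the integrin gene *Itgal* by -1.43, the coagulation factor gene *F13a1* by -1.04, the scavenger receptor gene *Msr1* by -1.03 and the chemokine gene *Ccl6* by -1.02. The neutrophil markers summed to 88.9, 151, 98.6 and 113 CPM with *H2-Ab1* and 103, 298, 161 and 239.6 CPM without, lower with *H2-Ab1* in each library, and neutrophils held more *Slpi* and *Hp* than monocytes. Their part in these calls was not tested. Of 21 monocyte genes outside the rule, 3 were lower and none higher, with a median of -0.41.

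The genes of the rule, given without a test, also differed between the sets. *Chil3* stood at 272, 262, 339.7 and 421 CPM in cells with *H2-Ab1* and 1042, 1151, 769.9 and 1110.3 CPM without, so every library without lay above every library with. *Vcan* stood at 139, 295, 252 and 134 CPM against 216, 501, 623 and 460.1 CPM, lower with *H2-Ab1* in each library. *Ccr2* was close, at 328, 393, 416 and 588 CPM against 366, 406, 238 and 546 CPM. *Plac8* stood at 2763, 2017, 1479 and 2863 CPM against 2526, 3627, 2422 and 4563 CPM, and here Control 1 went against the other 3 libraries.

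The 11 interferon genes, 12 glycolysis genes and 11 inflammatory mediators tested gave no call between the sets, with medians of -0.38, -0.08 and -0.33. The number of genes called was 98 without Control 1, 18 without Control 2 and 20 without hucMSC-Exo 2, against 44 in all. A setting added after the data were seen left out the 60 members that held markers of other blood cells. It called 27 genes, and *Wnt11* (1.88, edgeR adjusted p = 0.112) and *Msr1* lost the call. Without the library block 9 genes were called, and *Slpi*, *Hp*, *Il1r2*, *Ramp3* and *Wnt11* were among those not called. With DESeq2, *Ramp3* (2.90, DESeq2 adjusted p = 0.135), *Itgal*, *F13a1* and *Msr1* lost the call. With at least 5 of the 7 genes, 25 were called, and *Il1r2* (0.58, edgeR adjusted p = 0.424), *Mgst1*, *Itgal*, *F13a1*, *Msr1* and *Ccl6* lost the call.

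**Figure D4:**
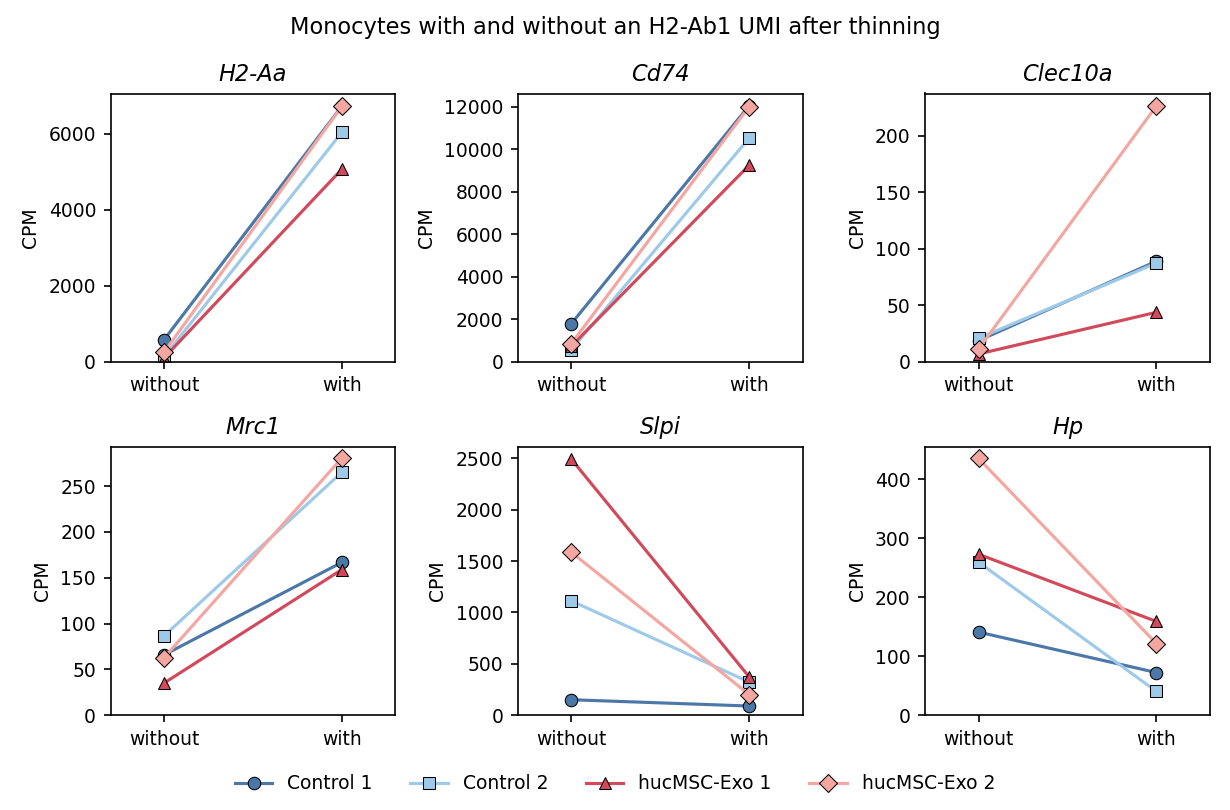
Levels in CPM of 6 genes in monocytes without and with an H2-Ab1 UMI after thinning to 1000 UMIs, with 1 line per library and axes that start at 0. H2-Aa, Cd74, Clec10a and Mrc1 lie higher with H2-Ab1 in all 4 libraries, and Slpi and Hp lie lower.

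*Arg1* (chr10:24915221-24927484, minus strand, GRCm38) marked a smaller set. After thinning, 0 of 40, 14 of 90, 1 of 51 and 13 of 149 monocytes held an *Arg1* UMI, and none of the neutrophils did. The 0 of 40 allows up to 7.5% of cells with a UMI at this reduced depth. Before thinning, 2.5%, 27.2%, 7.84% and 13.3% of the monocytes held an *Arg1* UMI, against 0%, 0%, 1.54% and 0% of the neutrophils. The comparison therefore rested on Control 2 and hucMSC-Exo 2, with 27 cells against 212, and it tells these libraries' sets apart and not the groups. edgeR called 10 genes higher in the cells with *Arg1* (0.263%) and 25 lower (0.658%) of 3799, or 0.921% in all, with a median of -0.21. No repair gene was called among 10 tested.

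*Ccl24*, a chemokine that attracts eosinophils, stood at 135 and 422 CPM with *Arg1* in Control 2 and hucMSC-Exo 2 and 21.8 and 8.83 CPM without (4.01 ± 0.54, adjusted p = 2.8e-05, edgeR). Before thinning, only 12.0% of all monocytes of Control 2 and 2.67% of those of hucMSC-Exo 2 held a *Ccl24* UMI. The level in hucMSC-Exo 2 therefore came from very few cells. *Inhba*, a subunit of activin, stood at 184 and 1226 CPM against 141 and 243 CPM (1.37 ± 0.33, adjusted p = 0.0386, edgeR), with most of the gap in hucMSC-Exo 2. *Bnip3*, *Egln1* and *Ero1l*, which hypoxia is known to induce, changed by 1.63, 1.49 and 1.31, and *C3ar1* by 1.58. *Bnip3* was the only one of the 12 listed hypoxia and glycolysis genes that was called.

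The heat shock genes *Hspa1a* and *Hspa1b* were lower with *Arg1*. *Hspa1a* stood at 24.5 and 61.8 CPM against 181 and 1283 CPM (-4.27 ± 0.42, adjusted p = 5.99e-08, edgeR), and *Hspa1b* changed by -4.33. The cells without *Arg1* in hucMSC-Exo 2 were far above those in Control 2. *Lyz2* stood at 2375 and 6769 CPM against 7082 and 8673 CPM (-1.20 ± 0.20, adjusted p = 0.00057, edgeR), and *Cd209a* had no UMI in the cells with *Arg1* and stood at 34.4 and 86.1 CPM without. Only 3.26% of all monocytes of Control 2 and 8.67% of those of hucMSC-Exo 2 held a *Cd209a* UMI before thinning. Its lack of UMIs in so small a set does not show that these cells lacked the gene's RNA. The calls between the *Arg1* sets were few under other settings: DESeq2 called 3 genes (*Ccl24*, *Hspa1a* and *Hspa1b*), the fit without the library block called *Ccl24* alone, and the fit without the 60 members that held markers of other blood cells called *Hspa1a* alone.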

How the data were processed

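Droplet single-cell libraries of 4 mice were measured. The authors deposited whole UMI counts per gene and cell, made with Cell Ranger 6.1.2 from reads aligned to mm10, with no normalization. The deposited files do not state whether the authors' doublet and immune cell filters came before them. The 4 feature lists share 19001 genes, and only these were used.

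Cells were kept and chosen as given above with Python 3.11.15, numpy 2.4.6, scipy 1.17.1, pandas 2.3.3 and scanpy 1.11.5 (Scrublet, seed 0). UMI counts were summed per library and population, and libraries with fewer than 10 cells of a population were left out. Comparison cells were C1q-high macrophages (C1q sum of 10 or more, fewer than 3 osteoclast-like genes), osteoclast-like macrophages (3 or more, C1q sum under 10) and neutrophils (3 or more of *Cxcr2*, *Csf3r*, *Retnlg*, *Mmp9*, *Trem1* and *G0s2*, C1q sum under 10), all with fewer than 4 monocyte genes and no *Cd3g*, and the macrophages with no *Cxcr2* or *Cxcl9*. Sums were tested with edgeR 4.0.16 in R 4.3.3 (quasi-likelihood, TMM, filterByExpr, Benjamini-Hochberg over all genes tested), with the library as a block between populations of the same mice, and with DESeq2 1.42.0 as an alternative. Shares were compared with exact permutation tests. Monocytes were split by a UMI of *Arg1* or *H2-Ab1* after each cell of 1000 UMIs or more was thinned to 1000 (seed 1), and unthinned UMIs were summed. A count of 0 is read against a floor of 3 counts. Only the fits between the groups and against C1q-high macrophages were tried on simulated data, with the same spread for every gene and no shared effect of a library. The outcome is not reported here. Other alternatives were no filter, each library left out, no doublets, no upper gene limit, at least 5 markers, other cells left out and other blocks.

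Genes could be named from fixed lists, or as the 10 largest changes in each direction among called genes with the same direction in every library and a mean of at least 50 CPM, and between the groups as the 5 smallest p. The members, lists and comparisons were chosen with earlier results of these data known. Libraries of equal number share that number and the letter of their file names. Each library is 1 mouse by the study's text. Between the groups, p-values measure the spread between these 4 libraries. Between populations or sets they measure the spread of differences within libraries, by an estimate partly shared among genes. The fit against osteoclast-like macrophages rests on 3 libraries and that of the *Arg1* sets on 2. Some listed genes (Ly6g, Ngp, Ctsg and Cd300e among them) were not analysed here, and some others are not reported here.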

Additional observations from a re-analysis of the deposited data

How the results depend on the processing

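For the groups, the fit without doublets only repeated the main fit, since no member was called a doublet. The comparison of the groups called 0 genes, and this held with DESeq2, with no upper gene limit, with at least 5 markers and without members that held markers of other blood cells. It called 23 genes (11 higher, 12 lower) with no filter on low counts, and between 0 and 1 when each library was left out in turn, the 1 being *Cxcl2*. The labels give both groups the replicate numbers 1 and 2, and same-numbered libraries also share a file-name letter. No label says that same-numbered mice were paired, and their deviations had r = -0.252 across 4618 genes of the same libraries. With the replicate number as a block, which is also the grouping by the letters, 0 genes were called (43 at an unadjusted p under 0.05). With the crossed pairing, added after the data were seen, 9 were called.

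Against osteoclast-like macrophages, 594 genes became 275 with DESeq2, 1951 with no upper gene limit, 147 without members that held markers of other cell types, and 10 to 677 with each library left out. Against C1q-high macrophages, 1464 became 931, 1640, 459 and 834 to 1545 in the same settings, and against neutrophils 2362 became 2002, 2006, 1224 and 1509 to 2860. For the *H2-Ab1* sets, 44 became 23 with DESeq2, 120 with no filter, 25 with at least 5 markers, 27 without markers of other blood cells, 9 with no replicate block, and 18 to 98 with each library left out. For the *Arg1* sets, 35 became 3 with DESeq2, 70 with no upper gene limit, 1 without markers of other blood cells and 1 with no replicate block. Leaving out the library block changed the counts against the 3 populations to 486, 1065 and 2185.

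The share difference of 1.23 percentage points lay between -0.717 (without hucMSC-Exo 2) and 3.18 with each library left out, and was 0.154 with every cell thinned to 1000 UMIs before the rule and 1.05 to 1.48 in the other 7 settings, among which the groups overlapped in all but that without members with markers of other cell types. The setting without doublets, which left out no monocyte, is counted among the alternatives that follow. Of 911 values of named genes under the alternatives, 814 kept their direction and call, 90 lost the call, 3 gained it (*Cxcl2* between the groups) and 4 changed sign. The last were all against osteoclast-like macrophages: *Mrc1* at 0.96 and *Cd74* at 2.18 with no upper gene limit, *Cd74* between -0.14 and 0.11 with each library left out, the latter without hucMSC-Exo 2, and *Cd74* at 0.061 without markers of other blood cells, against a reported -0.02 for *Cd74*. The fits for the *Arg1* sets with 1 library left out, with at least 5 markers and without markers of other cell types, and for the *H2-Ab1* sets without markers of other cell types, were not run, as too few cells or libraries remained. The cause of these changes was not tested. With 2 mice per group, no permutation test of a share can pass 0.05, and a gene with a few UMIs per library has a wide error.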

Other observations

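The genes listed for patrolling monocytes, the subset that crawls along vessel walls, summed to 286, 268, 390.3 and 315 CPM in monocytes and 496, 473, 309.5 and 386 CPM in C1q-high macrophages. Most of the sum in monocytes came from 3 genes that other myeloid cells also express. These were *Nr4a1*, a transcription factor that many stimuli induce, at 147, 75.6, 73.8 and 134 CPM, the scavenger receptor gene *Cd36* at 52.4, 78.7, 108 and 52.8 CPM and the integrin gene *Itgal* at 45.4, 56.7, 76.8 and 63.7 CPM. *Cx3cr1*, the receptor for fractalkine, stood at 14.0, 7.87, 27.7 and 7.97 CPM, *Ace*, the angiotensin-converting enzyme, at 0, 4.72, 12.3 and 15.9 CPM and *Treml4* at 10.5, 4.72, 43.0 and 6.97 CPM. The values for *Cx3cr1* rest on 4, 5, 9 and 8 UMIs. Among cell cycle genes, *Mki67* stood at 3.49, 4.72, 6.15 and 4.98 CPM and *Top2a* at 10.5, 6.30, 9.22 and 11.0 CPM.

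Genes of clotting and of the plasminogen system went in both directions between the monocytes and C1q-high macrophages, with 3 of 7 tested called higher and 2 lower in monocytes. Of all genes tested there, 15.9% were called higher and 12.7% lower. *F5*, coagulation factor V, stood at 24.4, 47.2, 46.1 and 18.9 CPM against 0, 0, 2.12 and 0 CPM, from 71 UMIs against 1. *Plaur*, the receptor for urokinase, stood at 402, 447, 421 and 433 CPM against 91.9, 187, 209.9 and 112 CPM (1.66 ± 0.20, adjusted p = 4.01e-05, edgeR). *Plau*, urokinase itself, stood at 6.98, 17.3, 3.07 and 6.97 CPM against 43.5, 63.7, 57.2 and 35.2 CPM (-2.26 ± 0.34, adjusted p = 0.000296, edgeR), so the receptor gene was higher and the ligand gene lower in monocytes of all 4 libraries.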
